A study of Homo sapiens with 12 samples.

Results

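The genes described here make, sulfate and trim heparan sulfate: EXT1, EXT2, NDST1, HS2ST1, HS6ST1, HS6ST2, HS3ST1, HS3ST3A1, HS3ST3B1 and SULF2. They are 10 of the 19775 genes with a probe set of their own on the Affymetrix expression array, and all 27 probe sets that carry exactly one of these symbols were used. The genes were chosen by name with their values on these arrays already known, so their levels and differences are given as a description, with no test. The array was read in sorted cells of A549, a human lung adenocarcinoma line. Living cells had taken up the DNA dye Hoechst 33342 (5 µg/ml, for 90 min) before flow cytometry divided them into the side population (SP), which retains little of the dye, and the remaining cells (non-SP).

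The 4 groups were untreated non-SP, untreated SP, anti-EpCAM non-SP and anti-EpCAM SP cells, each with 3 biological replicates, which makes 12 arrays. Cells of the anti-EpCAM groups had been exposed for 48 h to 100 µg/ml of a monoclonal antibody that the labels call anti-mouse EpCAM, without saying whether mouse is its host or its target. All groups share the cell line and the dye, and the labels name no control antibody. Nothing in the labels says whether the replicates were separate cultures, so the errors measure the spread between these samples only.

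Heparan sulfate is a long sugar chain carried by proteins of the cell surface and the matrix, where it binds growth factors, chemokines and adhesion proteins. EXT1 and EXT2 polymerise the chain, NDST1 exchanges acetyl groups for sulfate on its glucosamines, and the HS2ST, HS6ST and HS3ST enzymes then add sulfate at single positions of the sugars. SULF2 acts outside the cell on finished chains and removes sulfate from the 6-O position, and so works against the HS6ST enzymes.

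Values are RMA log2 levels per probe set, and probe sets whose 12-array mean exceeded 5.39, the 40th percentile of all probe sets, were kept. Of the 27 probe sets, 20 were kept and 7 were dimmer. A gene is represented by its brightest kept probe set, which gave 8 of these 10 genes among the 14649 compared, and HS3ST3A1 and HS6ST2 had no kept probe set. SP and non-SP arrays with the same treatment and replicate number deviated together from their group means, with r of 0.62 to 0.89 across genes, so the difference between fractions is given within these 6 pairs. That a pair comes from the same sort is not stated in the labels. Array medians ran from 5.58 to 6.24, while the sorted values within a pair differed by a mean of 0.0093 to 0.021. Whether each pair was normalised separately, which could also make its arrays deviate together, was not tested. The epithelial markers EPCAM, CDH1, KRT8, KRT18 and KRT19 lay between 8.73 and 14.78 on all arrays, while PTPRC (leukocytes), VWF and CDH5 (endothelium) and LUM, PDGFRA and COL3A1 (fibroblasts) had means under the filter level. CD3E, PECAM1 and DCN had means of 6.71, 6.71 and 6.14.

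Between the fractions, HS3ST3B1 and SULF2 stood out among the 8 genes, in opposite directions. HS3ST3B1, a 3-O-sulfotransferase, was higher in SP cells in 6 of 6 pairs, by 0.58 ± 0.21 on the log2 scale (SD, n = 6 pairs), a ratio of 1.50. SULF2, the 6-O-endosulfatase, was lower in SP cells in 6 of 6 pairs, at -0.55 ± 0.21 (SD, n = 6 pairs), and non-SP cells had 1.46 times the SP value. The other 6 genes had mean differences from -0.11 to 0.16. In bulk RNA of sorted cells, fewer cells with a transcript and less of it per cell cannot be told apart.

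The regions around the transcript starts of HS3ST3B1 and SULF2 are shown because these genes had the largest fraction differences of the 10. Each window is RefSeq sequence of GRCh38.p14, from 250 bases before to 50 bases after a start, written 5′ to 3′ on the gene's strand. Capitals mark the GC box GGGCGG or its reverse complement. SULF2 has 4 start windows in the table, and the one with the most GC boxes is printed.
HS3ST3B1, chr17:14300831-14301130, plus strand: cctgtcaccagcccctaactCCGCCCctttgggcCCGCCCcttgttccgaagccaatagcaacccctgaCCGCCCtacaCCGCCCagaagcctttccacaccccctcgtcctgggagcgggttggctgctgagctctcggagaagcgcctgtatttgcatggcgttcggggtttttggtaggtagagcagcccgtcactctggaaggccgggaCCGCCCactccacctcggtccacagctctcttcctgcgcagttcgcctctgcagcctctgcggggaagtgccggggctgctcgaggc
SULF2, chr20:47785432-47785731, minus strand: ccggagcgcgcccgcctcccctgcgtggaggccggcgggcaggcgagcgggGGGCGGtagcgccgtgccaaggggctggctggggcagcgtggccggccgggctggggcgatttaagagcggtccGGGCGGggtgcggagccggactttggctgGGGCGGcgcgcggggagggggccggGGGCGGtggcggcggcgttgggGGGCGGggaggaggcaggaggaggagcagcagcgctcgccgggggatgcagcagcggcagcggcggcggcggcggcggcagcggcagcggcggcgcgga
Each printed window holds 5 GC boxes, and the other 3 SULF2 windows hold 0, 0 and 1. The SULF2 window was picked by this count, so its match to HS3ST3B1 is not a result. Among the other genes, HS6ST1 holds 7, HS3ST3A1 and HS2ST1 hold 4 each, and HS3ST1 and NDST1 hold 1 each. HS6ST2 holds 0, and the EXT2 windows hold 0, 2 and 2. At least 1 GC box was found in 45% of the 35116 windows of the same length that were searched, which leave out the chromosome of EXT1. The other motifs searched, on both strands, were TATAAA (in 11.5% of all windows), the AP-1 letters TGANTCA (7.71%), the CRE letters TGACGTCA (1.85%), the E-box CACGTG (7.26%) and the EGR1 letters GCGTGGGCG (0.795%). None of these 5 was found in either printed window, and of the other SULF2 windows 1 holds the E-box, once. These are runs of letters, and the arrays measured no binding.

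HS3ST3B1 was represented by probe set 227361_at. Its untreated non-SP levels were 5.05, 6.31 and 7.59 in replicates 1, 2 and 3, and its untreated SP levels were 5.70, 6.58 and 8.18. Its anti-EpCAM non-SP levels were 5.35, 6.82 and 7.50, and its anti-EpCAM SP levels were 5.85, 7.73 and 8.09. Each SP array was above its own non-SP partner, but the fractions overlapped widely, since the pairs themselves differed more than the fractions did. The differences were 0.65, 0.26 and 0.60 in the untreated pairs and 0.50, 0.91 and 0.59 in the anti-EpCAM pairs. The means were 0.50 ± 0.21 and 0.66 ± 0.22 (SD, n = 3 pairs each), and the pairs of the 2 treatments overlapped.

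**Figure D1:**
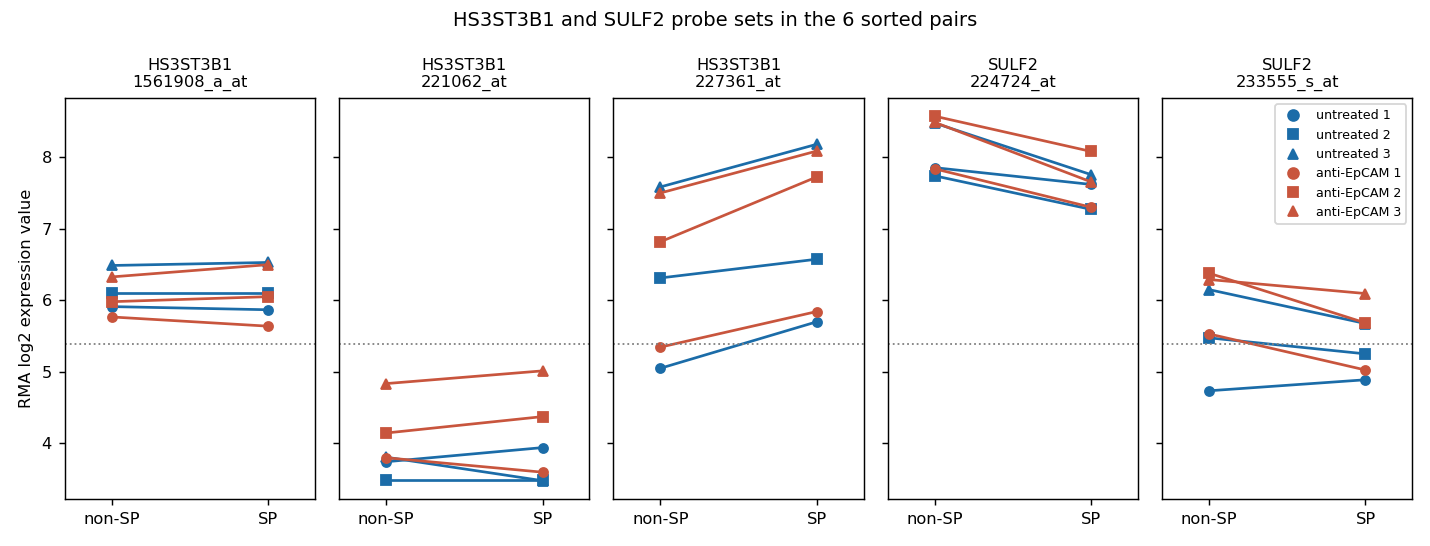
RMA log2 level (y axis) of the 3 HS3ST3B1 and 2 SULF2 probe sets in non-SP and SP cells (x axis), with a line joining the arrays of each of the 6 pairs, coloured by treatment, and the filter level of 5.39 dotted. All 6 lines go up for HS3ST3B1 227361_at, by 0.26 to 0.91, and all 6 go down for SULF2 224724_at, whereas the other HS3ST3B1 probe sets have mean differences of 0.019 and 0.012.

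The other HS3ST3B1 probe sets did not share this difference. At 1561908_a_at, with levels from 5.64 to 6.53, it was 0.019 ± 0.10 (SD, n = 6 pairs), with SP higher in 3 pairs, lower in 2 and equal in 1. The third, 221062_at, lay below the filter at 3.48 to 5.02 and gave 0.012 ± 0.23. The HS3ST3B1 difference was therefore carried by a single probe set, and the mean over all 3 was 0.21. Which part of the transcript each probe set reads, and whether any of them also binds the close paralogue HS3ST3A1, was not tested.

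HS3ST3B1 varied more between the pairs than most genes. With each array's median subtracted, its 12 levels at 227361_at spanned 2.70, against a median of 0.71 over the 14649 genes, and 0.43% of genes spanned more. The genes whose median-subtracted levels followed it most closely over the 12 arrays were NUMB, an inhibitor of Notch signalling (Pearson r = 0.978), ERN1, a sensor of unfolded proteins (r = 0.975), SCEL, a protein of the cornified envelope (r = 0.973), SALL1, a transcription factor (r = 0.971), and F2RL2, a thrombin receptor (r = 0.970). These correlations are descriptions, because arrays of a pair resemble each other across genes and are not independent points. In each group the HS3ST3B1 level rose from replicate 1 to 2 to 3, as did the array medians. The part of replicate number in these correlations was not tested. The SP minus non-SP differences of NUMB, ERN1, SCEL, SALL1 and F2RL2 were 0.24, 0.24, 0.50, 0.32 and 0.32, higher in SP cells in 5, 6, 6, 5 and 6 pairs. Among all genes, 6.03% were higher in SP cells in all 6 pairs. These 5 genes were picked for likeness to HS3ST3B1 over arrays of both fractions, which favours the same direction. Nothing is therefore read from their differences.

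SULF2 was represented by probe set 224724_at. Its untreated non-SP levels were 7.86, 7.74 and 8.48 in replicates 1, 2 and 3, and its untreated SP levels were 7.62, 7.27 and 7.76. Its anti-EpCAM non-SP levels were 7.84, 8.58 and 8.49, and its anti-EpCAM SP levels were 7.30, 8.08 and 7.66. Every SP array was below its partner, although the raw levels of the fractions overlapped. With array medians subtracted, non-SP levels ran from 1.91 to 2.34 and SP levels from 1.42 to 1.94. The differences were -0.24, -0.47 and -0.72 in the untreated pairs and -0.54, -0.49 and -0.83 in the anti-EpCAM pairs, and those of the 2 treatments overlapped.

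The second SULF2 probe set, 233555_s_at, was lower in SP cells in 5 of 6 pairs, at -0.32 ± 0.30 (SD, n = 6 pairs). Its exception was untreated pair 1, at 0.15, which is also the pair with the smallest difference at 224724_at. The mean over both probe sets was -0.44.

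A measure of RNA quality differed within some pairs. The GAPDH control's 3′ minus 5′ signal, which grows with RNA degradation, was higher in SP than in non-SP by 0.54 in anti-EpCAM pair 1 and by 0.30 in anti-EpCAM pair 2, and was -0.38 in anti-EpCAM pair 3, against -0.11 to 0.11 in the untreated pairs. Without anti-EpCAM pairs 1 and 3, the mean difference was 0.60 for HS3ST3B1 and -0.48 for SULF2. These means still hold anti-EpCAM pair 2. In the untreated pairs alone the mean difference was 0.50 for HS3ST3B1 and -0.48 for SULF2. With any 1 pair left out the mean difference ran from 0.52 to 0.65 for HS3ST3B1 and from -0.61 to -0.49 for SULF2.

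HS3ST1, which makes the antithrombin-binding site of heparan sulfate, was also lower in SP cells in 6 of 6 pairs at its brightest probe set, 205466_s_at, but by less. The difference was -0.11 ± 0.12 (SD, n = 6 pairs), and untreated pair 1, at -0.34, stood apart from the other 5, which ran from -0.13 to -0.012. Without that pair the mean was -0.066. The other HS3ST1 probe sets gave 0.14 ± 0.16 at 213991_s_at and -0.013 ± 0.21 at 205465_x_at. In untreated pair 1 itself, 213991_s_at had 0.40, the opposite sign, and the mean over the 3 probe sets was 0.0055. HS3ST3A1, which makes the same kind of site as HS3ST3B1, lay at 3.13 to 3.49 on the 12 arrays, below the filter, and its difference of 0.079 ± 0.080 is that of a dim probe set.

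The 6-O-sulfotransferases add the sulfate that SULF2 removes. HS6ST1 had levels from 8.10 to 9.25 at 225263_at and was higher in SP cells in 5 of 6 pairs, by 0.16 ± 0.12 (SD, n = 6 pairs). The untreated differences were 0.21, 0.22 and 0.14 and the anti-EpCAM differences 0.31, -0.044 and 0.10, so that only anti-EpCAM pair 2 lay below 0. Its other probe sets gave -0.017 ± 0.17 and, below the filter, -0.081 ± 0.14, and the mean over the 3 was 0.019. HS6ST2 was dim at all 3 of its probe sets, with a highest single level of 4.54, and their mean differences ran from -0.099 to -0.0037.

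HS2ST1, which sulfates the uronic acids of the chain, had levels from 9.39 to 10.15 at 203284_s_at. It was higher in SP cells in 5 of 6 pairs, by 0.12 ± 0.17 (SD, n = 6 pairs), and lower only in anti-EpCAM pair 3, at -0.16. Its other probe sets gave 0.074, 0.072 and -0.024, and all 4 were below 0 in that same pair. NDST1, which opens the chain to further sulfation, had a narrow range of levels, 8.34 to 8.75, and a difference of -0.014 ± 0.21 with 3 pairs on each side of 0. A second NDST1 probe set, 202607_at, was lower in SP cells in 5 of 6 pairs, at -0.16 ± 0.11, and the third gave -0.035 ± 0.16.

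The chain polymerases had differences close to or within their spread over pairs. EXT1 had levels from 8.68 to 9.47 at 201995_at and a difference of -0.065 ± 0.26 (SD, n = 6 pairs), which covered -0.29 in anti-EpCAM pair 3 to 0.38 in anti-EpCAM pair 1. These are the pairs with the most negative and the most positive GAPDH difference, whose part in the EXT1 values was not tested. The other kept EXT1 probe set, 230183_at, had the opposite sign, at 0.093 ± 0.26, with SP higher in 4 of 6 pairs. Its lowest pair was untreated pair 2, at -0.19, and its highest was anti-EpCAM pair 1, at 0.41. The dim 214985_at gave -0.12 ± 0.30. EXT2, the partner of EXT1 in the polymerase complex, had levels from 9.65 to 10.44 and was higher in SP cells in 5 of 6 pairs, by 0.10 ± 0.086. Its second probe set gave 0.045 ± 0.13, with 3 pairs on each side of 0.

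**Figure D2:**
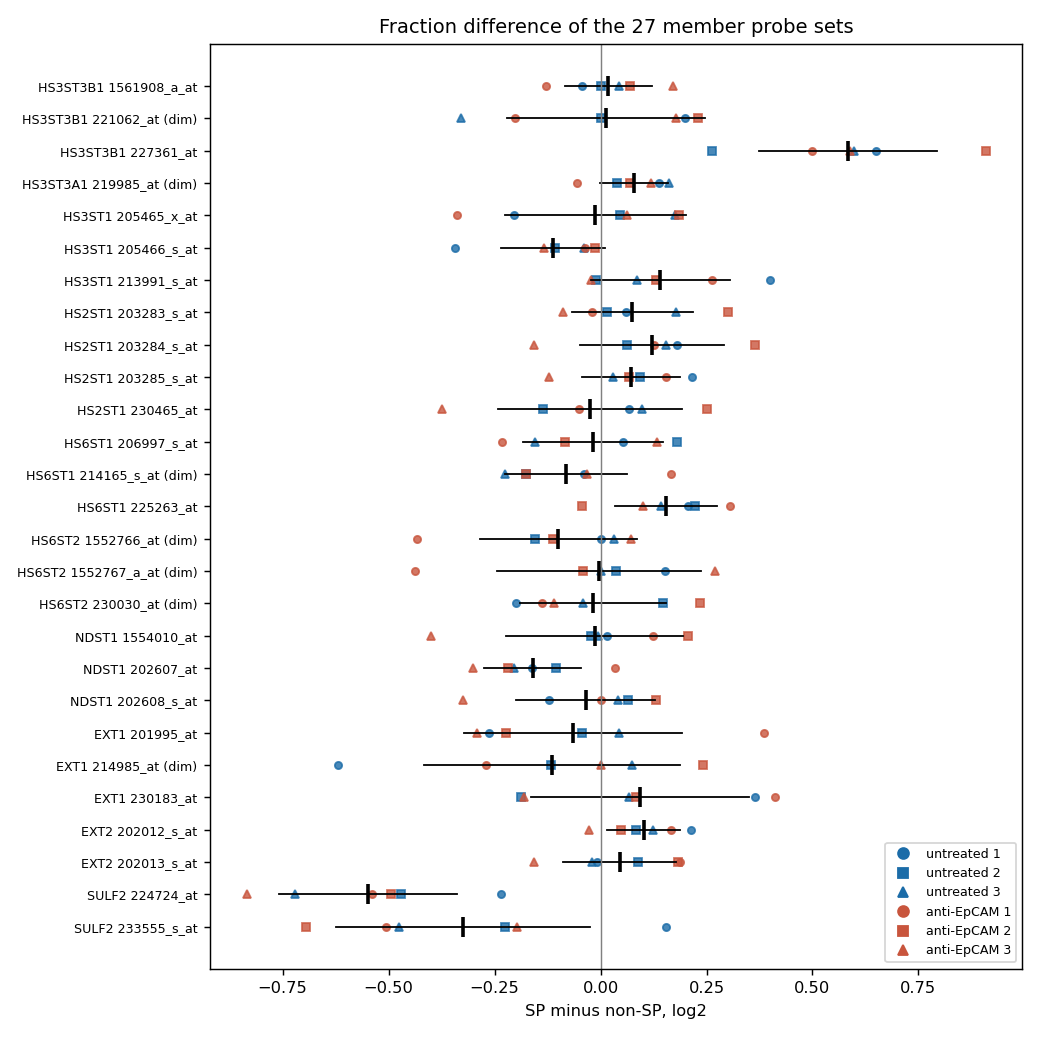
SP minus non-SP difference on the log2 scale for each of the 27 probe sets, with a point for each of the 6 pairs and a bar for the mean ± SD. All 6 points lie on the same side of 0 for 3 probe sets, HS3ST3B1 227361_at, SULF2 224724_at and HS3ST1 205466_s_at. The same held for 10.7% of all genes, each at its brightest kept probe set, so nothing is read from this count.

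In the fit of all 14649 genes over the 6 pairs (limma, adjusted p under 0.05), 2.47% of genes were called, 1.02% as higher and 1.45% as lower in SP cells. Of the 8 genes, 1 was among those higher (HS3ST3B1), 1 among those lower (SULF2) and 6 were not called. When the 12 arrays were treated as independent, 0% of genes were called at the adjusted threshold and 1.5% at an unadjusted p under 0.05. SP was higher in all 6 pairs for 6.03% of all genes and for 1 of the 8, and lower in all 6 for 4.68% of all genes and for 2 of the 8, so that 10.7% of all genes and 3 of the 8 had the same sign throughout. The median difference of the 8 genes was 0.044, against 0.0056 over all genes. Since the genes were chosen with this comparison in view, nothing is read from these counts.

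By antibody, the levels of these genes overlapped between treated and untreated cells. The median over all genes was 0.10 higher in the anti-EpCAM than in the untreated non-SP arrays and 0.077 higher in SP arrays, and the differences below have this shift subtracted. At the brightest kept probe sets of the 8 genes, they ran in non-SP cells from -0.34 for EXT1 to 0.17 for SULF2. In SP cells they ran from -0.26 for EXT1 to 0.32 for HS3ST3B1. Some other kept probe sets of these genes lay beyond these ranges or had the other sign. In non-SP and SP cells, SULF2 233555_s_at had 0.51 and 0.25, and HS6ST1 206997_s_at had 0.40 and 0.34. HS3ST3B1 1561908_a_at had -0.25 and -0.18. For all 27 probe sets and in both fractions the 3 treated and the 3 untreated arrays overlapped. Among all genes, the groups did not overlap for 1.62% (treated higher) and 0.601% (treated lower) in non-SP cells and for 1.36% and 0.369% in SP cells. Since overlap was the rule for most genes, nothing is read from it for these 27 probe sets.

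For HS3ST3B1 the spread between replicates was larger than the antibody difference. Its non-SP level was 6.32 ± 1.27 in untreated and 6.56 ± 1.10 in treated cells, and its SP level 6.82 ± 1.26 and 7.22 ± 1.21 (SD, n = 3 arrays each). SULF2 had 8.03 ± 0.40 and 8.30 ± 0.40 in non-SP cells and 7.55 ± 0.25 and 7.68 ± 0.39 in SP cells. EXT1, at 201995_at, had 9.17 ± 0.38 and 8.94 ± 0.25 in non-SP cells and 9.09 ± 0.25 and 8.90 ± 0.16 in SP cells, lower with antibody in both, with overlap. The other EXT1 probe sets did not share this fall in both fractions. With the all-gene shift subtracted, the kept 230183_at had -0.0076 in non-SP and 0.043 in SP cells. The dim 214985_at had -0.24 and -0.00033. In limma fits of all genes, 0% were called between treated and untreated cells in either fraction at an adjusted p under 0.05, and 0.635% (non-SP) and 0.532% (SP) at an unadjusted p under 0.05. With the replicate number as a block these unadjusted shares were 8.51% and 5.33%, still with 0% at the adjusted threshold. The same block without anti-EpCAM pairs 1 and 3, which leaves a single antibody sort, called 48.6% and 49.4% of all genes, and nothing is read from it. Treated and untreated arrays never belong to the same pair, so these differences cross any processing that was done pair by pair.

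**Figure D3:**
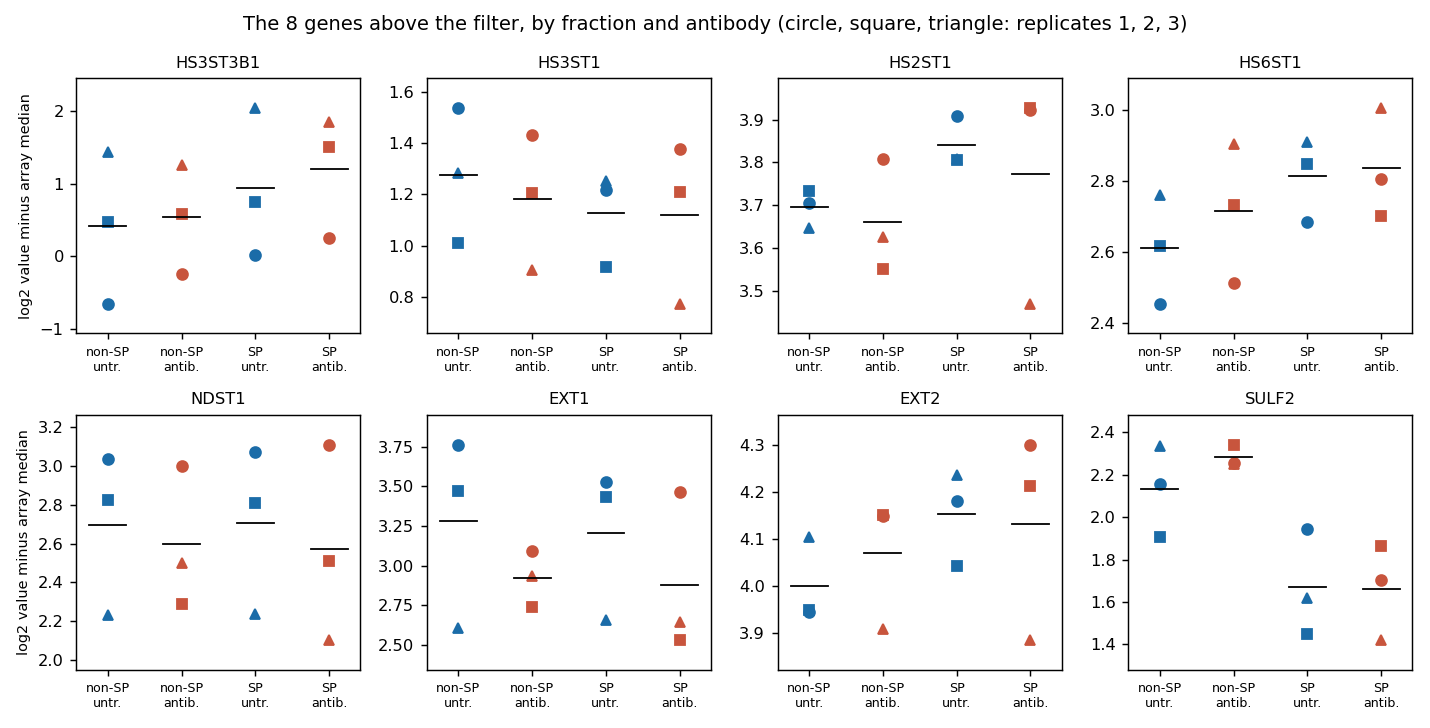
Level of the 8 genes above the filter, as log2 minus the array median (y axis), in the 4 groups, with a point per array and a line at the group mean. Treated and untreated points overlap in both fractions for every gene shown, and the 12 HS3ST3B1 levels span 2.70.

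Other genes of the pathway were set beside these from a list by role, 39 genes of which 27 were tested. With the 12 arrays as independent samples, 0 of the 27 were called between the fractions by limma, against 0% of all genes. In that fit 0 of the 27 had an unadjusted p under 0.05, against 1.5% of all genes, and nothing is read from these counts. Over the 6 pairs, 0 of the 27 were higher in SP cells, 1 was lower and 26 were not called, against 2.47% of all genes. Their median difference was 0.026, with a range from -0.37 to 0.20. The gene that fell over pairs was IDUA, a lysosomal enzyme that removes iduronic acid during breakdown of the chain, at -0.37 ± 0.081 (SE), lower in 6 of 6 pairs (limma adjusted p = 0.0446 over pairs, 0.0178 to 0.182 over 13 alternatives). Its other probe sets gave 0.16 and -0.070, and of the 6 fits that left out 1 pair, IDUA passed in 1, the one without anti-EpCAM pair 1.

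By role, the enzymes of the linkage to the core protein (6 tested), of chain initiation and elongation (3), of N-sulfation and epimerisation (1), of O-sulfation (2), of extracellular remodelling (2) and of precursor supply (7) had 0 calls in either direction. In the linkage group, B4GALT7, which adds the first galactose, had 0.10 ± 0.057 (SE; limma adjusted p = 0.433), and PXYLP1, which removes phosphate from the linkage xylose, had -0.14 ± 0.069 (adjusted p = 0.350). In the chain group, the EXT-like genes EXTL1 and EXTL2 had 0.13 ± 0.088 (adjusted p = 0.530) and -0.079 ± 0.054 (adjusted p = 0.512). GLCE, the epimerase that turns glucuronic into iduronic acid, had 0.015 ± 0.060 (adjusted p = 0.933).

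The further 3-O-sulfotransferases tested, HS3ST2 and HS3ST6, had 0.026 ± 0.072 (SE; limma adjusted p = 0.900) and 0.094 ± 0.069 (adjusted p = 0.550). Outside the cell, SULF1, which removes the same sulfate as SULF2, had 0.070 ± 0.064 (adjusted p = 0.642), and HPSE, the heparanase that cuts the chain, had 0.15 ± 0.069 (adjusted p = 0.336). In precursor supply, UGP2, which makes UDP-glucose, had 0.20 ± 0.068 (adjusted p = 0.172) and the nucleotide sugar transporter SLC35D1 had 0.15 ± 0.092 (adjusted p = 0.471). Of the 6 lysosomal enzymes tested, IDUA was the 1 called, against 2.47% of all genes, and 5 had differences below 0. For the antibody, 0 of the 27 genes were called in either fraction by limma, against 0% of all genes. At an unadjusted p under 0.05 there were 0 of the 27, against 0.635% (non-SP) and 0.532% (SP) of all genes. With shares this small, nothing is read from these counts.

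**Figure D4:**
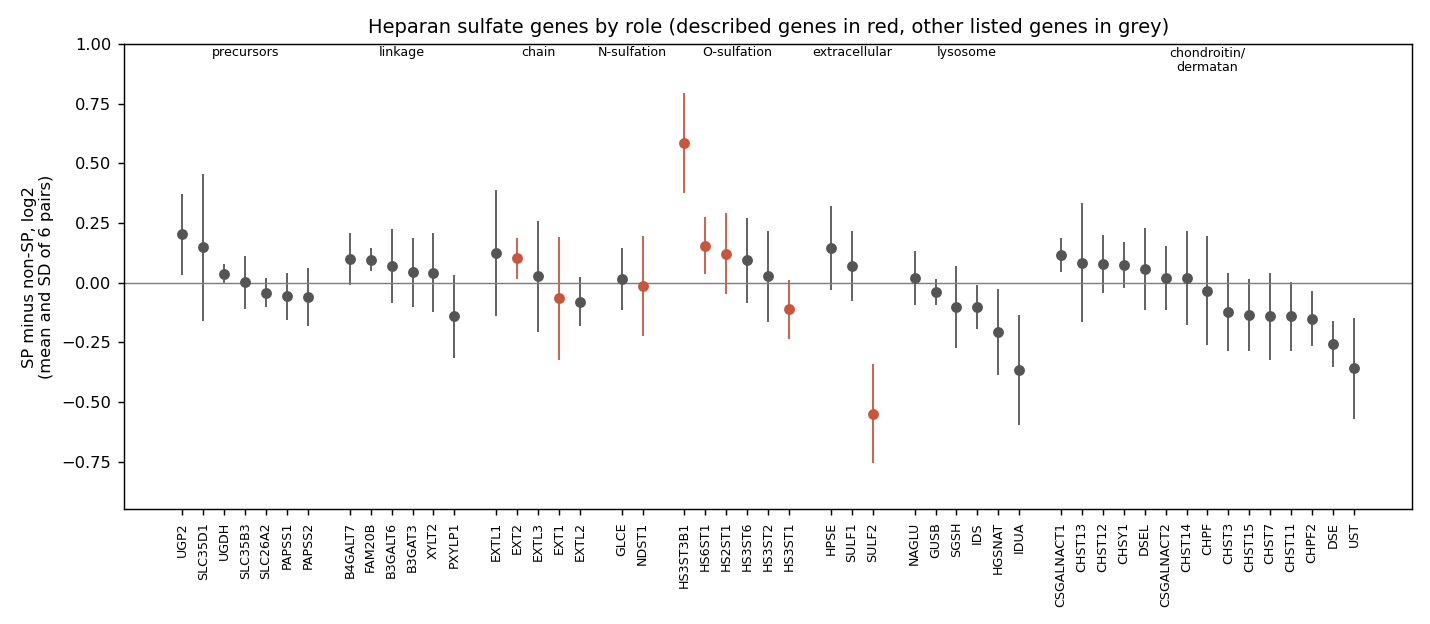
SP minus non-SP difference on the log2 scale, mean ± SD over 6 pairs, for the 8 genes above the filter (red). The other tested heparan sulfate genes and the tested chondroitin and dermatan sulfate genes are grey, and all are grouped by role. HS3ST3B1 at 0.58 and SULF2 at -0.55 lie outside the range of the other listed genes, -0.37 to 0.20. The genes in red were chosen with their values known, so nothing is read from this.

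The related chondroitin and dermatan sulfate chains are built by other enzymes on the same linkage. Of 16 such genes 15 were tested, and over pairs 0 were higher, 2 were lower and 13 were not called, against 1.02% of all genes higher and 1.45% lower. Over independent arrays 0 were called, against 0% of all genes, and 1 of the 15 had an unadjusted p under 0.05, against 1.5% of all genes. UST, which adds 2-O-sulfate to these chains, fell by 0.36 ± 0.077 (SE; limma adjusted p = 0.0412, 0.0364 to 0.168 over 13 alternatives), and DSE, the epimerase of dermatan sulfate, fell by 0.26 ± 0.055 (adjusted p = 0.0402, 0.0321 to 0.170), both in 6 of 6 pairs. The other UST probe set, dimmer than the filter, gave -0.16, also lower in 6 of 6. The other 3 DSE probe sets, all dimmer than the filter, did not share the sign throughout, at 0.12 (higher in 5 pairs), -0.045 and 0.064. With 1 pair left out, UST passed in 2 of 6 fits, without untreated pair 1 and without anti-EpCAM pair 1, and DSE in 0. Of 13 core protein genes 9 were tested and 1, HSPG2 (perlecan), was called over pairs, against 2.47% of all genes. It was at -0.29 ± 0.065 (SE; limma adjusted p = 0.0499, 0.0259 to 0.223 over 13 alternatives), lower in 6 of 6 pairs. Over independent arrays 0 of the 9 were called and 0 had an unadjusted p under 0.05, against 0% and 1.5% of all genes. The other HSPG2 probe set gave 0.038, and with 1 pair left out HSPG2 passed only without anti-EpCAM pair 1.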

How the data were processed

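Gene expression was measured on an Affymetrix 3′ expression array in 12 sorted A549 samples. The deposited values are log2 expression values per probe set made with RMA by the authors, per the submitters' processing notes. The RMA version and the set of arrays it was run on are not given in the sources used here. The mean difference between the sorted values of the arrays of a pair was 0.0093 to 0.021. No further normalisation was applied. Array medians ran from 5.58 to 6.24. Precision is limited by there being 12 arrays.

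Of 54613 probe sets besides 62 controls, 41091 had 1 symbol in the probe table, 1801 several and 11721 none, and only the first were named. Tests used limma 3.58.1 in R 4.3.3 with statmod 1.5.0 and Benjamini-Hochberg adjustment over 14649 genes. The planned fit gave each group a mean over 12 independent arrays, and the other fit used the 6 pairs as a block. The pairing rests on correlations of deviations from group means (0.62 to 0.89), which normalisation pair by pair could also raise. Treated against untreated, the same check gave 0.73 (non-SP) and 0.71 (SP) for number 1, 0.60 and 0.64 for number 3, but -0.11 and -0.18 for number 2. Since pairing was accepted only where every r exceeded 0.1, numbers were not taken to pair treatments. Both fits were tested on simulated data.

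The genes and lists were chosen with earlier results of these data known. All 10 genes are named. From each list the passing genes of smallest p are named (up to 4), or, where none passed, the 2 of largest absolute difference, and for likeness the 5 genes of highest r. RefSeq start windows on the chromosome of EXT1 were left out, and symbols of the other 9 of the 10 genes matched a window.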

Additional observations from a re-analysis of the deposited data

Results flagged for a closer look

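For HS3ST1 probe set 205466_s_at, the SP minus non-SP difference of untreated pair 1 was -0.34 on the log2 scale, farther from the other 5 pairs than Dixon's criterion allows for 6 values. Its non-SP level was 7.24 and its SP level 6.90. The same pair had 0.40 at HS3ST1 213991_s_at and -0.21 at 205465_x_at. Chance flags about 1 in 20 groups under this criterion, and 27 probe sets and 4 further genes were examined.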

How the results depend on the processing

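With the pairs as a replicate block, the calls between fractions went from 0 to 1 among the other heparan sulfate genes (IDUA), from 0 to 2 among chondroitin and dermatan sulfate genes (UST and DSE; 1 with the GAPDH measure added, UST) and from 0 to 1 among core proteins (HSPG2). Alternatives run on the paired fit were chosen after seeing the data. There the heparan sulfate count of 1 became 0 without the filter, with every probe set tested, with the GAPDH measure, or without anti-EpCAM pairs 1 and 3, and 0 to 2 with 1 pair left out. The chondroitin and dermatan sulfate count of 2 became 1 without the filter, 0 with every probe set, 1 with the GAPDH measure, 0 without those pairs, and 0 to 1 with 1 pair left out. The core protein count of 1 became 0 under each of these and with median centring, and 0 to 1 with 1 pair left out. For the antibody, a block on the replicate number without anti-EpCAM pairs 1 and 3 called 13 heparan sulfate genes in non-SP and 14 in SP cells, against 0. That fit has 1 antibody sort left and 2 residual degrees of freedom, and calls 48.6% and 49.4% of all genes. Averaging all probe sets moved HS3ST3B1 to 0.21 and HS6ST1 to 0.019, and reversed HS3ST1 to 0.0055. Apart from the block itself, the cause of these changes was not tested. Of the values computed under alternatives for counts and for the 10 genes, 170 kept their direction and their side of the threshold or stayed within the spread, 29 counts fell, 7 rose, 2 values moved and 1 reversed. The 170 include counts that stayed at 0 with the arrays as independent samples. That fit called 0% of all genes, so these counts had little room to change and are no sign of stability. For IDUA, UST, DSE and HSPG2 over pairs, 17 alternatives kept the call and 35 lost it, all in the same direction.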
